A study of Mus musculus with 14 samples.

Results

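Cytosolic ribosomal protein genes encode the protein subunits of the ribosome that translates messenger RNA in the cytoplasm. They were taken by symbol from the table of gene counts: names of the form Rpl or Rps with a number, together with Rpsa, Rplp0, Rplp1 and Rplp2, and without rows named as pseudogenes and without the Rps6k kinases. The rule found 85 of 25131 rows, 33 for the small subunit and 52 for the large subunit with its stalk. The RNA-seq groups were mouse embryonic stem cells (ESCs) labelled RCOR2 KO (2 libraries) and WT (2 libraries). Both groups were of the C57BL/6 background and were cultured on gelatin in serum medium, with leukemia inhibitory factor plus PD0325901 and CHIR99021, which inhibit the kinases MEK and GSK3. The sources used here do not give the deleted part of Rcor2, nor whether the KO cells were a clone or a pool. RCOR2 is a corepressor of the CoREST family, and its binding was mapped by chromatin immunoprecipitation (ChIP) of HA-tagged RCOR2 in ESCs of the same background (2 samples, with 2 control samples), deposited as a peak list.

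Each ribosome carries a small subunit, which reads the messenger RNA, and a large subunit, which joins amino acids and lets the new chain leave through a tunnel. The subunit proteins are used in fixed proportions, and their genes are spread over nearly all chromosomes. Their messenger RNAs begin with a run of pyrimidines (the TOP motif), through which the mTOR pathway controls their translation together. A few have paralogs that are used mainly in germ cells or muscle.

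Total counts were 2951498 and 1974865 in KO, against 2368804 and 1286393 in WT. Levels are given as CPM, counts per 1000000 counts after TMM scaling, and are not per transcript length, so that their order between genes also depends on length. Rcor2 itself had 53.8 and 53.5 CPM in KO and 80.8 and 80.9 CPM in WT, and its difference did not pass the test (log2 fold change −0.59, edgeR adjusted p = 0.0636). Where these reads lie relative to the deleted part is not known, so they do not check the labels. All 8 ESC markers were tested, and their levels summed to 3722 and 3737 CPM in KO and 3858 and 3639 CPM in WT. Singly, 1 of the 8 passed the edgeR test as higher in KO and 1 as lower (10.4% and 9.3% of all tested genes). The sums therefore do not show that each marker was unchanged. The 8 fibroblast markers summed to 11.4 to 26.5 CPM, the 6 primitive endoderm markers to 1.67 to 7.20 CPM with 1 of them at 0 in all libraries, and the 4 neural markers to 19.2 to 60.3 CPM. The 6 trophoblast markers summed to 127 and 144 CPM in KO and 30.6 and 26.5 CPM in WT, and the part of this difference in the results was not tested. In bulk RNA, fewer cells of a type and less RNA per cell cannot be told apart.

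Of the 85 members, 80 had enough counts to be tested. Rpl26 had no count in any library, and Rps27 had 0 and 0 counts in KO and 3 and 0 counts in WT. Rpl34 had 9 and 4 counts in KO and 3 and 6 counts in WT, and Rpl30 had 6 and 0 counts in KO and 0 and 17 counts in WT. These proteins are core subunits, so the few counts do not measure their expression. This family has many processed pseudogenes, the sources used here do not say how reads shared with them were counted, and all levels are uncertain in that respect. The muscle paralog Rpl3l had 7 and 5 counts in KO and 4 and 14 counts in WT.

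The members took 10.5% and 10.2% of all counts in the KO libraries, and 10.2% and 8.45% in the WT libraries. The WT library of replicate 2 was below the other 3, which lay close together. The mean share was 10.4% ± 0.169 in KO and 9.31% ± 1.21 in WT (SD, n = 2 each), a difference of 1.05 percentage points. An exact permutation test gave p = 0.333, two-sided, the smallest value that 2 libraries against 2 allow. The labels do not say whether the replicates came from separate cultures, and all p-values here therefore rest on a spread that may be technical.

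Gene by gene, KO was compared with WT by edgeR's quasi-likelihood test over 10241 genes, and a gene was called at a Benjamini-Hochberg adjusted p under 0.05. Of the 80 tested members, 18 were called higher (22.5%; 10.4% of all tested genes) and 4 lower (5%; 9.3% of all tested genes). Of the 1017 other tested genes in the highest 10% by mean CPM, 19.7% were called higher, close to the members' share, and 14.7% lower. The median log2 fold change was 0.22 over the members and −0.02 over the other tested genes. Both KO libraries were above both WT libraries for 43 members and below them for 10, while the groups overlapped for 27. Over all tested genes 28.1% were above and 28.8% below in this sense. Of 32 tested small-subunit genes, 7 were called higher and 0 lower, with a median of 0.30. Of 48 tested large-subunit genes, 11 were called higher and 4 lower, with a median of 0.19. The 4 lower members were Rpl39l, Rpl38, Rpl23 and Rpl19.

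The number of members called changed with single libraries. With KO replicate 1 left out, 6 members were called higher (5.29% of all genes then tested), and with KO replicate 2 left out, 5 (5.61%). With WT replicate 1 left out, 44 were called higher (8.57% of all genes), and with WT replicate 2 left out, 12 (8.33%). The counts of members called lower were 1, 1, 1 and 9 in the same order, against 4.33%, 3.97%, 5.97% and 7.06% of all genes. In each of these fits the lone library of a group is assumed to vary like the other group.

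The members' median log2 fold change differed with the chromosome that carries them, while single genes overlapped. Over all genes of the table, KO levels were higher on chromosomes 3, 6 and 8 and lower on chromosome 11. The median log2 fold changes of the tested genes that are not members were 0.48 on chromosome 3, 0.91 on chromosome 6, 0.51 on chromosome 8 and −0.49 on chromosome 11. All 6 tested members on chromosomes 3, 6 and 8 had fold changes above 0, with a median of 0.83, and 5 of them were called higher. All 6 tested members on chromosome 11 had fold changes below 0, with a median of −0.35, and 3 of them were called lower. For comparison, 36.9% of 1541 other tested genes on chromosomes 3, 6 and 8 were called higher, and 31.0% of 864 on chromosome 11 were called lower. The 68 tested members on the other chromosomes had a median of 0.22, with 13 called higher (19.1%) and 1 lower (1.47%). Of the 7730 other tested genes there, 5.85% were called higher and 8.18% lower, and of the 720 of these in the highest 10% by mean CPM, 8.89% and 11.7%.

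**Figure D1:**
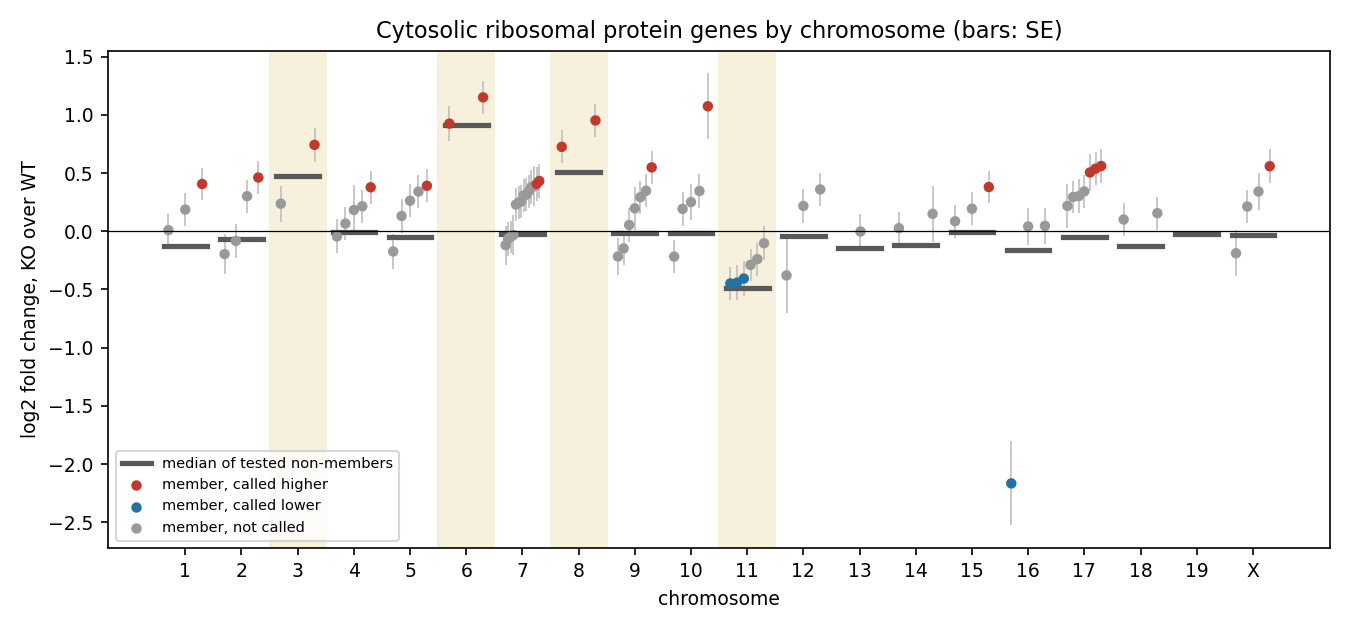
The log2 fold change, KO over WT, of the 80 tested ribosomal protein genes is plotted by chromosome, 1 point per gene with its SE, and the thick bar is the median of the other tested genes of that chromosome. Points on the shaded chromosomes 3, 6 and 8 lie above 0, those on chromosome 11 lie below 0, and Rpl39l on chromosome 16 stands alone at −2.17.

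Rpl32, a large-subunit protein encoded on chromosome 6 (115805514 to 115808743, GRCm38), had 2651 and 3057 CPM in KO and 1218 and 1354 CPM in WT. Both KO libraries were more than 1000 CPM above both WT libraries. Its log2 fold change of 1.15 ± 0.14 (SE) had an edgeR adjusted p of 6.12e-09. Rps4l, on the same chromosome (148354656 to 148355596), is a paralog of the small-subunit gene Rps4x that RefSeq annotates as a transcribed pseudogene. It had 713 and 741 CPM in KO and 413 and 350.1 CPM in WT, with no overlap, and its log2 fold change was 0.93 ± 0.15 (edgeR adjusted p = 2.53e-06). Reads that fit both Rps4l and Rps4x could have been counted for either.

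On chromosome 8, the large-subunit gene Rpl13 (123102350 to 123105244) had 1766 and 1688 CPM in KO and 957 and 825 CPM in WT. Both KO libraries lay well above both WT libraries. Its log2 fold change was 0.95 ± 0.14 (edgeR adjusted p = 5.75e-07).

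On chromosome 3, the small-subunit gene Rps3a1 (86137940 to 86142668) had 649 and 727 CPM in KO and 443 and 377 CPM in WT. The groups did not overlap, and the log2 fold change was 0.74 ± 0.15 (edgeR adjusted p = 0.000129). Rpl22l1 (28805508 to 28807424), a paralog of Rpl22, had 459 and 421 CPM in KO and 429 and 315 CPM in WT. Here WT replicate 1 lay between the KO libraries, and the difference was not called (0.24 ± 0.15, edgeR adjusted p = 0.309). With WT replicate 1 left out it was called, at 0.50 (edgeR adjusted p = 0.0221). The median of the other tested genes within 10 Mb of Rpl22l1 was 0.24, below the 0.48 of the whole chromosome. Within 10 Mb of Rps3a1 it was 0.61.

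The chromosome 11 members moved the other way, with a median log2 fold change of smaller size (−0.35 against 0.83). Measured from the median of members on the other chromosomes, the distances were of like size. They were −0.61 to −0.52 over the pairs of a KO with a WT library, against 0.49 to 0.64 for chromosomes 3, 6 and 8. Rpl38, a large-subunit protein needed for the translation of some Hox messenger RNAs in mouse embryos, lies at 114667818 to 114672333. It had 1197 and 1209.5 CPM in KO and 1804 and 1476 CPM in WT. Rpl23, known to bind the p53 regulator MDM2, lies at 97777526 to 97782439. It had 2311 and 2209.7 CPM in KO and 3690.1 and 2441 CPM in WT. Rpl19, another large-subunit gene (98022003 to 98030493), had 319 and 377 CPM in KO and 482 and 439 CPM in WT. In all 3 genes both KO libraries were below both WT libraries, and for Rpl23 the WT library of replicate 2 was close to the KO libraries.

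The log2 fold change was −0.45 ± 0.14 for Rpl38, −0.44 ± 0.15 for Rpl23 and −0.41 ± 0.15 for Rpl19. Their edgeR adjusted p-values were 0.0178, 0.0276 and 0.0488. None of these calls held without either KO library or without WT replicate 1. Without KO replicate 1 the edgeR adjusted p-values were 0.214 for Rpl38, 0.179 for Rpl23 and 0.487 for Rpl19, and without KO replicate 2 they were 0.276, 0.375 and 0.168. Without WT replicate 1 they were 0.0736, 0.578 and 0.186, and the log2 fold change of Rpl23 was then −0.10. Scaling the libraries without chromosomes 3, 6, 8 and 11 also ended the calls, with edgeR adjusted p-values of 0.0529, 0.0742 and 0.105.

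The other chromosome 11 members were not called. Rps27a, which encodes a small-subunit protein fused to ubiquitin, had 928 and 883 CPM in KO and 1148 and 1064 CPM in WT (−0.29 ± 0.14, edgeR adjusted p = 0.147). Rpl23a, at the exit of the tunnel, had 2732 and 2636 CPM in KO and 3519 and 2813 CPM in WT (−0.24 ± 0.14, edgeR adjusted p = 0.254). Both were below WT in both KO libraries, and both were called with WT replicate 2 left out, at −0.34 and −0.39 (edgeR adjusted p = 0.0308 and 0.000229). Rpl27 had 737 and 735 CPM in KO and 916 and 660.2 CPM in WT, so the groups overlapped (−0.10 ± 0.15, edgeR adjusted p = 0.701). With WT replicate 1 left out its log2 fold change was 0.17. Rack1, a scaffold protein on the small subunit whose gene also lies on chromosome 11, had 2028 and 1886 CPM in KO and 2631 and 2543 CPM in WT, and was called lower (−0.40, edgeR adjusted p = 0.0312).

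**Figure D2:**
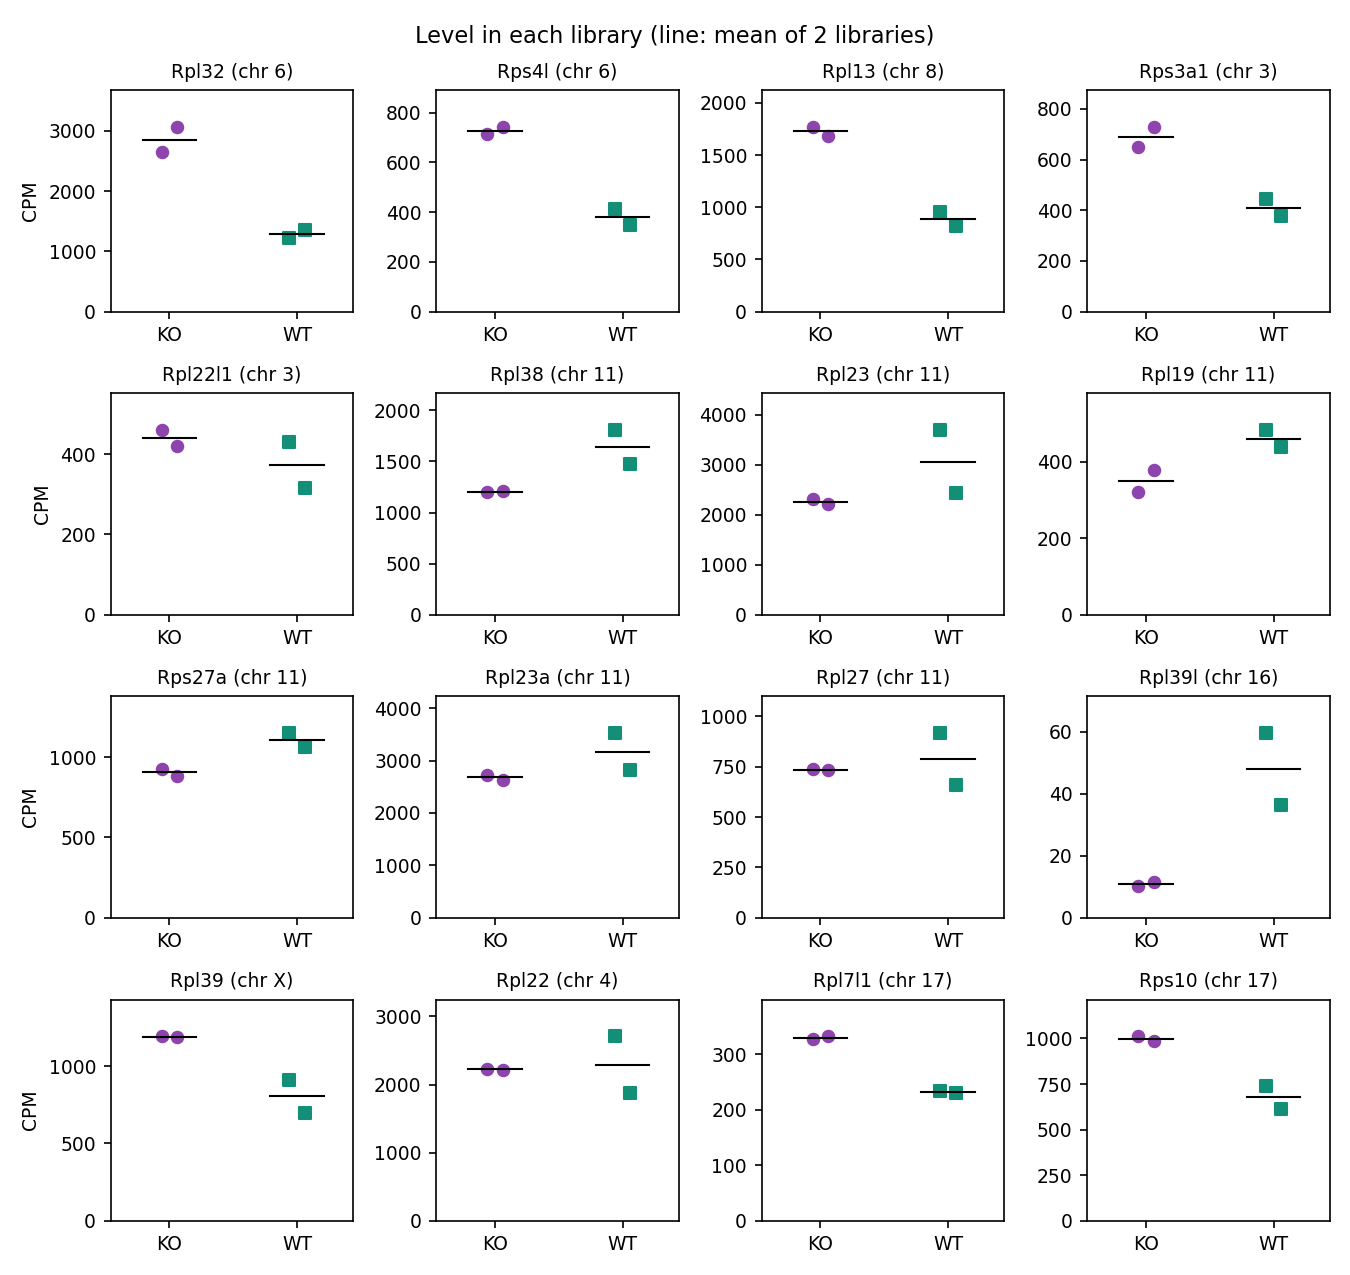
Each panel shows the CPM of a ribosomal protein gene in the 2 KO libraries (circles, left) and the 2 WT libraries (squares, right), from 0 upwards, with the mean of each group as a line. Of the plotted genes of chromosomes 6, 8 and 3, which come first, Rpl22l1 alone overlaps, the next panels hold genes of chromosome 11, and the last hold Rpl39l, Rpl39, Rpl22, Rpl7l1 and Rps10.

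To ask whether members differed from the shift of their chromosome, KO and WT were compared again after the median log2 fold change of the other tested genes of the chromosome was taken away. Of the 5 members called higher on chromosomes 3, 6 and 8, 1 was still called. This was Rpl13, at 0.44 ± 0.14 above its chromosome (edgeR adjusted p = 0.0268). That call was lost without KO replicate 1 (0.43, edgeR adjusted p = 0.269), without KO replicate 2 (0.48, edgeR adjusted p = 0.255), and with the replicate number as a block (0.44, edgeR adjusted p = 0.0725). The centred log2 fold change was 0.24 for Rpl32, 0.27 for Rps3a1, 0.02 for Rps4l and −0.24 for Rpl22l1, and none of these was called. Against genes within 10 Mb in place of the whole chromosome, Rps4l was at 0.38 (edgeR adjusted p = 0.0783) and Rpl22l1 at 0.00.

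On chromosome 11 no member was called after centring. Rpl38, Rpl23 and Rpl19 were at 0.04, 0.05 and 0.08, close to the median of their chromosome. Rps27a was at 0.20, Rpl23a at 0.25 and Rpl27 at 0.39 (edgeR adjusted p = 0.072). The 6 members there had a centred median of 0.14, those of chromosomes 3, 6 and 8 had 0.23, and the 68 on the other chromosomes had 0.27. Of the 1017 other tested genes in the highest 10% by mean CPM, 117 were called higher and 92 lower after centring. Of the 80 tested members, 12 were called higher (6.36% of all genes) and 1 lower (6.62% of all genes) after centring. With KO replicate 1 left out the number higher was 1 (2.81% of all genes), and with KO replicate 2 left out 0 (2.88%). With WT replicate 1 left out it was 44 (5.14% of all genes), and with WT replicate 2 left out 7 (4.82%). The number called lower after centring was 1, 1, 1 and 5 in the same order of libraries, against 2.6%, 2.65%, 4.5% and 5.14% of all genes.

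The members' medians differed between the chromosome classes, which are 3, 6 and 8 together, 11, and the others. This was seen in each pair of a KO with a WT library. The median of members on chromosomes 3, 6 and 8 exceeded that of members on the other chromosomes by 0.49 to 0.64 on the log2 scale over the 4 pairs. For genes that are not members this distance was 0.63 to 0.66. The median of members on chromosome 11 differed from that of members on the other chromosomes by −0.61 to −0.52, and for genes that are not members the difference was −0.45 to −0.37.

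The distances between chromosome classes subtract what the classes share, and the members' level itself moved with the WT library in each class. On chromosomes 3, 6 and 8 the members' median log2 difference was 0.70 and 0.77 for KO replicates 1 and 2 over WT replicate 1. Over WT replicate 2 it was 0.90 and 0.99. On chromosome 11 it was −0.48 and −0.40 over WT replicate 1, and −0.14 and −0.18 over WT replicate 2. On the other chromosomes it was 0.13 and 0.12 over WT replicate 1, and 0.41 and 0.35 over WT replicate 2. The same medians for genes that are not members were between 0.56 and 0.61 on chromosomes 3, 6 and 8. They were between −0.50 and −0.44 on chromosome 11, and between −0.07 and −0.05 on the other chromosomes. On those chromosomes the WT libraries differed by a median of 0.29 in the 68 members (replicate 1 over replicate 2). In the other genes there they differed by 0.00, whereas the KO libraries differed by 0.01 in the 68 members. WT replicate 2 was also the library with the fewest counts, and the part of its depth in this difference was not tested.

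**Figure D3:**
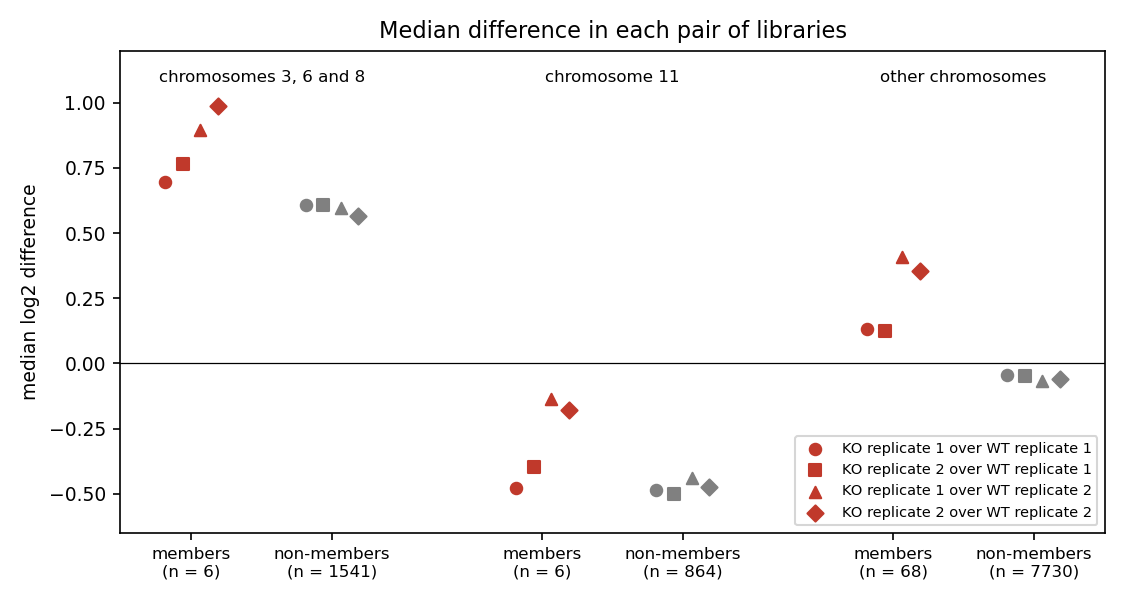
Median log2 differences are plotted for the 4 pairs of a KO over a WT library, for ribosomal protein genes (red) and the other tested genes (grey) of 3 chromosome classes. The red points of a class spread with the WT library used, 0.12 to 0.41 on the other chromosomes, while the grey points stay within a narrow band.

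Away from chromosomes 3, 6, 8 and 11, 13 members were called higher. Rps10, a small-subunit protein, had 1012 and 988 CPM in KO and 739 and 613 CPM in WT (0.56 ± 0.14, edgeR adjusted p = 0.00283). Rpsa, a small-subunit protein also known as the laminin receptor, had 1125 and 1180.4 CPM in KO and 853 and 719 CPM in WT (0.55 ± 0.14, edgeR adjusted p = 0.0033). Rps2, another small-subunit protein, had 2343 and 2149 CPM in KO and 1675 and 1416 CPM in WT (0.54 ± 0.14, edgeR adjusted p = 0.00373). In each, both KO libraries lay above both WT libraries, and WT replicate 2 was the lowest.

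The remaining small-subunit calls were Rps13 at 0.41 and Rps20 at 0.38. Among large-subunit genes, Rpl12, at the base of the stalk that recruits elongation factors, had a log2 fold change of 0.46, and Rplp2, an acidic protein of that stalk, 0.43. The stalk genes Rplp0 and Rplp1 were at 0.34 and 0.35 and were not called (edgeR adjusted p = 0.0823 and 0.0784). Rpl37a was at 0.41, Rpl9 at 0.39 and Rpl8, which lies near the site of peptide bond formation, at 0.38. Rpl39, which lines the exit tunnel, was at 0.56 and Rpl7l1 at 0.51. Over Rps10, Rpsa, Rps2 and these 9 genes, the edgeR adjusted p-values were between 0.00283 and 0.0495. All 12 had fold changes above 0 with any library left out, but 0 of the 12 calls held without KO replicate 1 (edgeR adjusted p of 0.0602 to 0.371) and 0 without KO replicate 2 (0.0757 to 0.413). Without WT replicate 2, 6 held (0.000606 to 0.159), and without WT replicate 1, all 12.

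Rpl32l, on chromosome 10 (20208439 to 20209030), had the second largest rise among the members. It had 61.0 and 89.3 CPM in KO and 48.5 and 18.9 CPM in WT, from 178 and 172 counts in KO and 116 and 25 counts in WT. The log2 fold change was 1.07 ± 0.28 (edgeR adjusted p = 0.00391). The call was lost by DESeq2 with all libraries, and also without KO replicate 2 (0.81) and without WT replicate 2 (0.62). Its sequence may be close to that of Rpl32, whose level was also higher, and how shared reads were counted is not given.

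Among the paralogs, Rpl39l had the largest fall of all members. In mouse this paralog of the tunnel protein Rpl39 is used chiefly in male germ cells. It had 10.3 and 11.4 CPM in KO, from 30 and 22 counts, and 59.4 and 36.3 CPM in WT, from 142 and 48 counts. Both KO libraries were far below both WT libraries, which also differed from each other. The log2 fold change was −2.17 ± 0.36 (edgeR adjusted p = 5.4e-06), and it stayed between −2.46 and −1.73 in all 13 alternative settings, with the call kept. Rpl39 itself, on the X chromosome, had 1193 and 1187 CPM in KO and 912 and 699.5 CPM in WT and was called higher (0.56 ± 0.14, edgeR adjusted p = 0.00321), so the pair moved apart. The call of Rpl39 was lost without KO replicate 1 (edgeR adjusted p = 0.0779) and without KO replicate 2 (0.0879).

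Rpl7l1, a paralog of Rpl7, had 328 and 332 CPM in KO and 234 and 231 CPM in WT (0.51 ± 0.16, edgeR adjusted p = 0.0152). Rpl7 had 969 and 876 CPM in KO and 897 and 721 CPM in WT and was not called (0.19, edgeR adjusted p = 0.407; 0.37 and 0.033 without WT replicate 1). Rpl22, which is known for its part in T-cell development, had 2235 and 2219 CPM in KO and 2708 and 1881 CPM in WT. The WT libraries lay on either side of KO, and the log2 fold change was −0.04 (edgeR adjusted p = 0.883). It was 0.26 without WT replicate 1 (edgeR adjusted p = 0.0571) and −0.28, and then called, without WT replicate 2 (edgeR adjusted p = 0.0226).

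Rpl10l, which replaces Rpl10 in male meiosis, had 25.4 and 28.0 CPM in KO and 37.7 and 31.0 CPM in WT (−0.38 ± 0.33, edgeR adjusted p = 0.467). Rpl10 had 99.0 and 94.0 CPM in KO and 114 and 106 CPM in WT (−0.19, edgeR adjusted p = 0.578). Both were below WT in both KO libraries without passing the test. Rps4x, the X-linked paralog of Rps4l, had 351 and 348 CPM in KO and 254 and 299 CPM in WT (0.34 ± 0.16, edgeR adjusted p = 0.118; 0.0454 without WT replicate 2). Rps27l, a p53-induced paralog of Rps27, had 1376 and 1454 CPM in KO and 1533 and 1188 CPM in WT, which overlapped (0.05, edgeR adjusted p = 0.849). Rpl36a (0.21, edgeR adjusted p = 0.335; 0.00632 without WT replicate 1), its paralog Rpl36al (−0.29, edgeR adjusted p = 0.302) and Rpl3 (0.09, edgeR adjusted p = 0.745) were not called. Fau, a ribosomal protein fused to a ubiquitin-like domain and outside the name rule, had 963 and 872 CPM in KO and 837 and 603 CPM in WT (0.35, edgeR adjusted p = 0.0932).

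The members with the most CPM in WT, a ranking that is not per length, were Rps19, Rps14 and Rpl4. Rps19, the gene most often mutated in human Diamond-Blackfan anaemia, had 4765 and 4712 CPM in KO and 4175 and 3812 CPM in WT (0.25, edgeR adjusted p = 0.23; 0.000711 without WT replicate 1). Rps14 had 3441 and 3487 CPM in KO and 3355 and 3103 CPM in WT (0.10, edgeR adjusted p = 0.686). Rpl4, which reaches into the exit tunnel, had 2966 and 2851 CPM in KO and 3756 and 2682 CPM in WT (−0.15, edgeR adjusted p = 0.541). For Rpl4 the direction turned with the WT library, at 0.13 without WT replicate 1 and −0.37 without WT replicate 2 (edgeR adjusted p = 0.363 and 0.000446).

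Lists of genes that work with the cytosolic ribosome had medians of 0.00 or below, against 0.22 for the members. Their counts of calls are to be read against the 10.4% of all tested genes called higher and the 9.3% called lower. Of 18 translation factors and other TOP genes, 3 were called higher and 2 lower, with a median log2 fold change of −0.09. The elongation factors Eef2 (0.64) and Eef1a1 (0.41) and the RNA-binding protein Hnrnpa1 (0.60) were higher, and Eif4a1 (−0.76) and Npm1 (−0.45), both on chromosome 11, were lower. Of 29 ribosome assembly genes, 2 were called higher (Nop2 on chromosome 6 and Nip7 on chromosome 8) and 3 lower (Pes1 and Npm1 on chromosome 11, and Wdr12), with a median of 0.00. Of 15 tested genes of RNA polymerase I and its factors, 1 was called higher (Polr1a on chromosome 6) and 0 lower, with a median of −0.09. Among 16 tested regulators, the translation repressor Eif4ebp1 on chromosome 8 was higher (0.97), and Mycn (−0.65), the mTOR activator Rheb (−0.58) and Larp4 (−0.53) were lower. Of 74 tested mitochondrial ribosomal protein genes, 5 were called higher and 15 lower, with a median of −0.21, and on the chromosomes other than 3, 6, 8 and 11 the counts were 0 and 7 of 50, against 5.85% higher and 8.18% lower of all 7730 tested genes there that are not members. No difference between these lists was tested.

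RCOR2 peaks were then placed at the members' ends. A summit lay within 1 kb of an end of the gene interval for 37 of the 85 members, or 43.5%. Among the 80 tested members it was 34, or 42.5%, against 67.5% of the other tested genes and 71.0% of those in the highest 10% by mean CPM. Of all 20678 other protein-coding genes of the count table, tested or not, 44.9% had such a summit, close to the 43.5% of the 85 members, so the distance from the other genes depends on whether genes with few counts are included. With the 5′ end alone, known for 64 members of which 60 were tested, the share was 37.5% of the 64, against 42.5% of the other protein-coding genes, and 36.7% of the 60, against 65.6% of the other tested genes. With either end again, over the 80 tested members and the other tested genes, the share at a −log10 q of at least 5 was 17.5% against 41.0%. At a fold enrichment of at least 5 it was 10% against 28.9%. Over all 85 members and the other protein-coding genes, the shares under these 2 thresholds were 17.6% against 26.6%, and 10.6% against 18.7%. The members' intervals are short, with a median of 3175 bp against 23737 bp, and the peaks come from merged libraries with no replicate values, so the difference was not tested. Of the 13 TALE 1 and 4 TALE 2 peaks from the pull-downs aimed at the Nanog locus, 0 had a summit at a member's end.

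**Figure D4:**
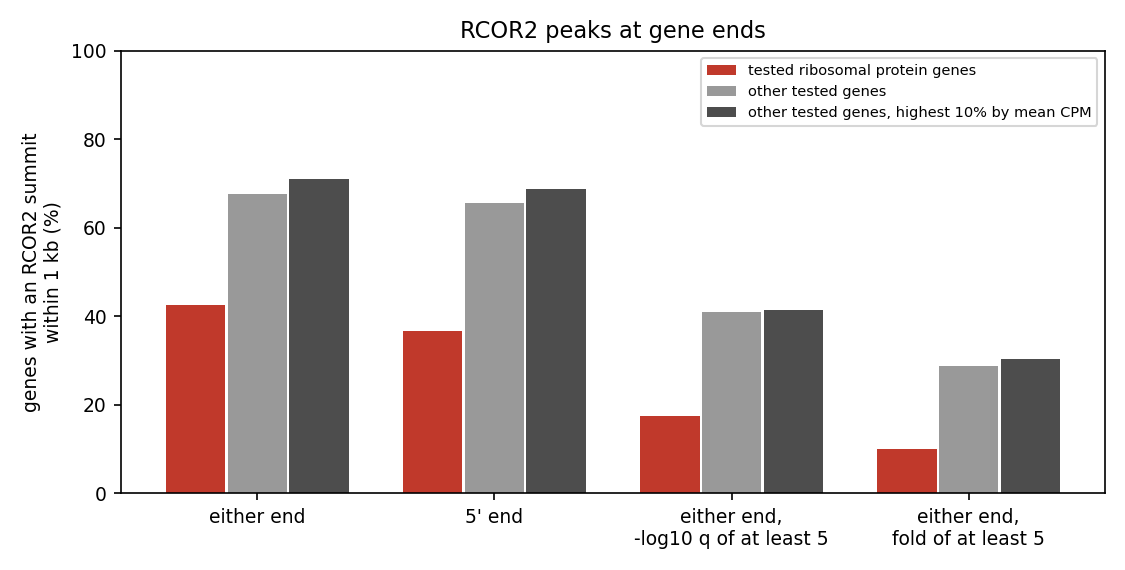
Bars, from 0, give the percentage of tested ribosomal protein genes (red), of other tested genes (light grey) and of the other tested genes in the highest 10% by mean CPM (dark grey) that have an RCOR2 summit within 1 kb, under 4 rules. The red bar is the lowest under each rule, at 42.5% against 67.5% and 71.0% for either end.

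The strongest peak of each of the 37 members had a median −log10 q of 4.46 and a median fold of 4.38, against 5.89 and 4.84 for the strongest peaks of the other tested genes that have one. Over all 53366 peaks the medians were 5.08 and 4.38, but that list is not limited to the strongest peak of a gene. These are the authors' values from the peak caller. Of the 49 peaks, 28 were nearer the 5′ end, 4 nearer the 3′ end, and 17 belonged to genes with no strand in the table. Rpl37a had by far the strongest, a peak of 14.7-fold with a −log10 q of 47.6 on chromosome 1 from 72710352 to 72711450 (GRCm38), which ranked 500 of 53366 peaks. Its summit was 429 bp before the start of the gene and the peak covered the start. Next came Rpl34 on chromosome 3 (130729800 to 130731741, 6.89-fold, −log10 q of 17.2), with a summit 97 bp before the start, and Rpl29 on chromosome 9 (106428648 to 106429209, 7.58-fold, 15.4).

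Members with and without a peak had like medians. Of the 34 tested members with a peak, 8 were called higher and 4 lower, with a median log2 fold change of 0.22. Of the 46 without, 10 were called higher and 0 lower, also with a median of 0.22. Over all tested genes 10.4% were called higher and 9.3% lower. On the chromosomes other than 3, 6, 8 and 11, 5 of 27 members with a peak were called higher and 1, Rpl39l, lower. Of the 41 members there without a peak, 8 were called higher and 0 lower. The other members called lower, Rpl38, Rpl23 and Rpl19, lie on chromosome 11, where all tested members had fold changes below 0. All 4 members called lower had a peak with a −log10 q below the median of all peaks, at 3.63 at Rpl39l, at most 2.62 at Rpl38, at most 4.46 at Rpl23 and 3.79 at Rpl19. Among the called members on chromosomes 3, 6 and 8, Rpl32, Rps4l and Rpl13 had a peak, and Rps3a1 had none. The peak at Rpl32 (115808977 to 115809445) and that at Rps4l (148354544 to 148355477) were each enriched 6.44-fold with a −log10 q of 10.7. Rpl37a, with the strongest peak, had 1128 and 1245 CPM in KO and 924 and 864 CPM in WT (0.41 ± 0.14, edgeR adjusted p = 0.0319), and Rpl29 had 137 and 152 CPM in KO and 123 and 129 CPM in WT (0.20, edgeR adjusted p = 0.512).

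Promoter sequences of 64 members were in the RefSeq table of GRCm38.p6, each from 250 bases before to 50 bases after the annotated start. That start is not always the 5′ end of the gene interval, from which the peak distances were taken. At Rpl38 the window lies inside the interval, which begins at 114667818, and at Rpl39l the starts also differ. They are shown for the member with the strongest peak (Rpl37a), for the called member with the next strongest peak and a strand in the table (Rps10), for the member of chromosomes 3, 6 and 8 that was still called after centring (Rpl13), for the largest fall on chromosome 11 (Rpl38) and for the largest fall of all (Rpl39l). Capitals mark CCGGAAG, the core of sites bound by ETS-family factors, or its reverse complement. The windows are chr1:72711010-72711309 on the plus strand for Rpl37a, chr17:27635195-27635494 on the minus strand for Rps10, chr8:123102100-123102399 on the plus strand for Rpl13, chr11:114668330-114668629 on the plus strand for Rpl38 and chr16:10169978-10170277 on the plus strand for Rpl39l.
Rpl37a: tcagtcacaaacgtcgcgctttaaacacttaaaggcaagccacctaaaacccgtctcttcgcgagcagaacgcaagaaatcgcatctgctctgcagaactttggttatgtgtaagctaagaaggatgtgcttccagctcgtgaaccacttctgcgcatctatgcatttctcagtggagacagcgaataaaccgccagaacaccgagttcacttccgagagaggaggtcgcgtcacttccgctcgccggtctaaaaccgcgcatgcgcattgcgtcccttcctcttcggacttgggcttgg
Rps10: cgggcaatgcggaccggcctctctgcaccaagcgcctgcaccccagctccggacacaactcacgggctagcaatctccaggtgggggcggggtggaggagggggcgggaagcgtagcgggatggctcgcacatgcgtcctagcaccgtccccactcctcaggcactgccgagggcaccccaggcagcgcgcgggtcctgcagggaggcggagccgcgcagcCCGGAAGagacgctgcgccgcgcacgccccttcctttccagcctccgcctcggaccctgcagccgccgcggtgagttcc
Rpl13: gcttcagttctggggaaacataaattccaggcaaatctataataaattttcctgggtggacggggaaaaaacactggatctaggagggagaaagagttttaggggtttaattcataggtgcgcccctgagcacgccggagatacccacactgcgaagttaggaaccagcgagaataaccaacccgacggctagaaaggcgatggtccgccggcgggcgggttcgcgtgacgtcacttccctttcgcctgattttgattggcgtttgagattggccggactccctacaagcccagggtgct
Rpl38: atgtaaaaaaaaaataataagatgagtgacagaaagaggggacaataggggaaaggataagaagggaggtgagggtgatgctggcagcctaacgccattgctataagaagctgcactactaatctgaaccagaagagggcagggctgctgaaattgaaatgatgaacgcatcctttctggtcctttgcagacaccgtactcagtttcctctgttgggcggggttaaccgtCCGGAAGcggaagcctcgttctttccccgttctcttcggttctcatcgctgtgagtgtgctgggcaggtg
Rpl39l: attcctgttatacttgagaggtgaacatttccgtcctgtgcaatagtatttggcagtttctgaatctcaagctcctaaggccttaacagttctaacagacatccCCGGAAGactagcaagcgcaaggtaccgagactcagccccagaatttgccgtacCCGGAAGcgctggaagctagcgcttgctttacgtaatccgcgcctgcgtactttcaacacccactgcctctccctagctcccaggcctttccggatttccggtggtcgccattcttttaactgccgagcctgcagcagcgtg

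Rps10 and Rpl38 each hold the ETS letters at 1 place, Rpl39l at 2, and Rpl37a and Rpl13 at none. On either strand, CCGGAAG was found in 25 of the 64 member promoters (39.1%), in 20.1% of 8207 promoters of the other tested genes and in 9.05% of 26961 other promoters in all. AAGATGGC, bound by YY1, was found in 7.81% of the members and 5.40% of the other tested genes. GGGCGG, bound by SP-family factors, was found in 59.4% and 67.2%, TATAAA in 10.9% and 6.80%, and CACGTG, bound by MYC-family factors, in 7.81% and 10.9%. The ends of CCGGAAG can overlap those of AAGATGGC and GGGCGG. A run of at least 8 C or T bases that covered the annotated start or came within 10 bases of it was present in 28 member promoters, or 43.8%, and in 13.5% of those of the other tested genes. The members' promoters had a median GC content of 57%, against 61.3% of the other tested genes. These matches describe the letters of the windows and were not related to the KO difference by any test.

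The gene bodies of the members also carry small nucleolar RNA genes, which guide the modification of ribosomal RNA and are processed from introns. At least 1 lay inside the interval of 30 of the 85 members (35.3%), against 2.57% of the other tested genes, and the members held 59 in all. Rpl4 held 5, and Rpl7a and Rpl13a held 4 each. Of the 18 members called higher, 11 hosted at least 1, of the 4 called lower 1, and of the 58 tested and not called 17. Over all tested genes 10.4% were called higher and 9.3% lower, but hosts among the called genes outside the members were not counted. Rpl32, Rpl13 and Rps3a1, which are among the hosts called higher, lie on chromosomes 6, 8 and 3. No link between hosting and the KO difference can be read from these counts, and none was tested.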

How the data were processed

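Gene counts of 2 KO and 2 WT RNA-seq libraries were analysed. The authors deposited raw counts of reads for each gene symbol, and no column was without a sample. Per the submitters' processing notes, which give no step for each tool, the series used STAR 2.5.2b, featureCounts, Subread, Trimmomatic 0.36, SAMtools 1.8, MACS2 2.1.1.20160309, HOMER, Bowtie2 2.3.4.1 and bedtools 2.25.0, with the builds GRCm38 and mm10. The sources used here do not say how molecular identifiers, strand and shared reads were handled, so reads of near-identical copies and of antisense partners cannot be told apart. In the peak lists the authors' values per peak are a fold enrichment, which is a ratio at the summit, and a −log10 q, both as deposited. The RCOR2 list holds 53366 peaks on chromosomes, called on merged libraries by the names in the file.

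Members, gene lists and tests were chosen with earlier results of these data known. Counts were fitted with edgeR 4.0.16 in R 4.3.3 (filterByExpr, TMM, quasi-likelihood test, two-sided, Benjamini-Hochberg over 10241 genes, adjusted p under 0.05), after the script was tested on simulated data. The SE is the size of the fold change over the square root of its F statistic. CPM were computed from the deposited counts. For the centred fit, the median log2 fold change of the tested genes of a chromosome that are not members was an offset in the KO libraries. Log2 differences between libraries used CPM plus 1. Positions came from RefSeq GRCm38.p6, which gives intervals, and strand from its promoter table, which held 64 members. Some genes are not reported here by name. Otherwise named were all called members, all tested members on chromosomes 3, 6, 8 and 11, 8 pairs of paralogs, the 3 with the highest WT CPM, the 3 largest changes each way and the 3 strongest peaks. Rplp0, Rplp1, the members with most small nucleolar RNA genes and the members with few counts were added after their values were seen. Alternatives were other scalings, DESeq2 1.42.0, limma-voom 3.58.1, no filter, added pseudogene rows, local centring, a replicate block, each library left out, and other peak rules. The total counts of the libraries, 1286393 to 2951498, limit precision for low genes. The chi-square per degree of freedom between replicates was 4.22 in KO and 4.78 in WT over all genes, above sampling noise. Over the members it was 6.84 in KO and 12.9 in WT. Where replicates vary beyond sampling, this value grows with the counts of a gene, and many members have high counts. It therefore does not show that the members varied more than other genes.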

Additional observations from a re-analysis of the deposited data

How the results depend on the processing

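Against 18 members called higher and 4 lower, edgeR with the replicate number as a block gave 12 and 1, and leaving out each library gave 5 to 44 higher and 1 to 9 lower. The lower count was also 1 when libraries were scaled without chromosomes 3, 6, 8 and 11, and 2 by DESeq2. Higher calls numbered 27 by limma-voom, 12 by DESeq2, and 13 to 20 with other scalings, no filter or added pseudogene rows. After centring on the chromosome, against 12 higher and 1 lower, the replicate block gave 8 and 1, and leaving out each library 0 to 44 and 1 to 5. Centring on genes within 10 Mb gave 18 higher and 1 lower, and centring with scaling by library size alone gave 17 and 1. Deviations of same-numbered libraries had a correlation of −0.05 over all tested genes and −0.26 over the members. The labels do not say that a number marks a shared culture, so the block is an alternative only. The median log2 fold change ranged from 0.72 to 0.98 on chromosomes 3, 6 and 8, from −0.43 to −0.16 on chromosome 11 and from 0.14 to 0.40 on the other chromosomes with a library left out, the extremes being the fits without a WT library. The difference in the share of counts ranged from 0.197 to 1.91 percentage points. The count of 37 members with a peak became 15 at a −log10 q of at least 5 and 9 at a fold of at least 5, because fewer peaks remain.

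Over 13 settings, 6 of the 22 called members kept their call in all, among them Rpl13, Rpl32, Rpl39l, Rps3a1 and Rps4l. Among the 38 named members, the only ones followed across settings, direction turned for 5 that were not called. With a library left out, Rpl22 ranged from −0.28 to 0.26 (and was at 0.0065 when scaled without chromosomes 3, 6, 8 and 11), Rpl27 from −0.32 to 0.17 and Rpl4 from −0.37 to 0.13, with the highest value without WT replicate 1. Rpl3 ranged from −0.0037 (without KO replicate 1) to 0.19, and Rps27l from −0.12 (without WT replicate 2) to 0.27. Apart from leaving out libraries, which removes samples, the cause of these changes was not tested. The members that were not tested had too few counts for a fold change, and whether depth or the counting of shared reads was behind this was not tested.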
